A study of Rattus norvegicus with 16 samples.

Results

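Protein-protected sites (PPS) on mitochondrial RNA of cultured rat cortical neurons are described here, in untreated cells and in cells given N-methyl-D-aspartate (NMDA), a glutamate receptor agonist that in excess causes excitotoxic injury. A PPS is a stretch of RNA that an RNase reaches only after protein has been digested away. All PPS that the deposited lists place on the mitochondrial genome (chrMT, rn6 build) were taken, with the strands kept apart. They numbered 459 of 329742 PPS in all, 170 on the plus strand and 289 on the minus strand. They came from 4 lists, control replicates 2 and 3 and NMDA replicates 2 and 3, each joining 4 libraries, which cross 2 RNases (RNase ONE, which cuts single-stranded RNA and is called ssRNase, and RNase V1, which cuts paired RNA and is called dsRNase) with the presence or prior removal of protein. The list was the replicate, with n = 2 per group.

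Neurons in both groups were from cortices of embryonic day 18 Sprague–Dawley CD rats, with no genetic change named. Cultures in the NMDA group received 10 µM NMDA, and control cultures received none. Per the labels' protocols, exposure began after 15 or 21 days in vitro and lasted 4 or 24 hours. Which of these applies here is not stated. No label tells whether replicates 2 and 3 came from separate cultures, so p-values measure only the spread between these lists, which may be technical. One protocol names cultured cells in lysis buffer and another nuclei isolated out of 3 grams of tissue, so the cell fraction is not settled. The lists hold no expression values, so neuronal identity could not be checked, and read depth is unknown.

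Mitochondrial DNA is a small circle that is transcribed along nearly its full length from both strands. The long transcripts are cut, mostly at the tRNAs that punctuate them, into rRNAs, tRNAs and the mRNAs of respiratory chain subunits. One strand, by convention the plus strand, reads as both rRNAs and nearly all mRNAs. The other yields the mRNA of the NADH dehydrogenase subunit ND6, a few tRNAs and antisense RNA that is normally short-lived. In the usual vertebrate order, the numbering opens with the 12S and 16S rRNA genes. The genes of the NADH dehydrogenase subunits ND1 and ND2 follow, then those of cytochrome oxidase and ATP synthase subunits, further NADH dehydrogenase subunits, and cytochrome b. The noncoding control region closes the circle. Proteins known to bind these RNAs include the LRPPRC–SLIRP complex on mRNAs and the mitochondrial ribosome. No gene map or sequence of rn6 was used here, so each PPS is named by its position and assigned to no gene.

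Parts of the deposited lists repeat each other on nuclear chromosomes. Strand ignored, 13395 nuclear PPS had the same position and scores in control replicate 2 as in NMDA replicate 3. The NMDA replicate 3 list also held 9720 of those in control replicate 3, whereas the control lists had 7 in common. These counts do not tell the strands apart. On chromosomes 1 to 5, the highest minus-strand score of control replicate 2 equalled the highest plus-strand score of NMDA replicate 3. The values were 79.06, 54.18, 62.22, 68.85 and 46.33. Some repeats may thus lie on opposite strands, which was not tested. All repeats were left in the values over nuclear chromosomes and over all chromosome strands. The mitochondrial plus strand was free of such repeats. Peaks were divided into 16 blocks by list, RNase and strand, and of 120 pairs of blocks 1 pair shared peaks, on the minus strand. The 36 minus-strand dsRNase peaks of control replicate 3 and the 36 minus-strand ssRNase peaks of NMDA replicate 3 carried equal scores, listed alike, and their peak numbers rose by equal steps. Comparisons of treatment therefore rest on the plus strand. A block moved whole to another list without a copy left behind would not be seen this way.

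The mitochondrial genome was far denser in PPS than the nuclear genome in every list. On the plus strand there were 2.59 and 3.58 PPS per kb in control replicates 2 and 3, and the NMDA lists had 2.84 and 1.48. Nuclear plus strands held between 0.0123 and 0.0187 PPS per kb. The mitochondrial density was thus 95.7 to 290 times the nuclear one, higher in 4 of 4 lists, with a mean difference of 2.61 ± 0.871 PPS per kb (SD, n = 4 lists; exact two-sided sign-flip test over lists, p = 0.125, the smallest that 4 lists allow; adjusted p = 0.35 over 14 comparisons within lists). The minus strand held 4.20 to 5.0 PPS per kb, counting those of a block repeated between lists, against 0.0115 to 0.0163 on nuclear minus strands (4 of 4 lists, exact p = 0.125, adjusted p = 0.35). Lengths are taken as the last position reached by a PPS on each chromosome, which is 16192 for the mitochondrial genome. Nuclear lengths thus count all bases, transcribed or not, whereas mitochondrial DNA is transcribed along nearly its full length. The ratio is therefore one of PPS per base of genome and not per base of RNA. Mitochondrial RNA is abundant in neurons, and no RNA level was available to set the density against. The sign-flip tests treat the 4 lists as independent, but nuclear PPS repeated between lists mean that they are not fully so. By PPS per 10000 of the list, the nearest nuclear chromosome strands were both strands of chromosome Y, at 0.755 to 4.08, and the minus strand of chromosome 20, at 69.3 to 152. The plus-strand mitochondrial values were 4.32 and 8.75 in control and 5.39 and 2.97 in NMDA.

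The plus strand took 2 very different forms, and these did not follow the treatment named in the labels. Control replicate 2 and NMDA replicate 3 were covered almost end to end beyond the first stretch of the genome, by few and long PPS. Control replicate 3 and NMDA replicate 2 held scattered short PPS. Covered bases came to 12908 and 2510 for control replicates 2 and 3. For NMDA replicates 2 and 3 they came to 2263 and 12974. As shares of the length reached, these are 79.7%, 15.5%, 14.0% and 80.1%. Each group thus held 1 list near full coverage and 1 list with little, and the groups overlapped completely. The spread within a group exceeded the difference between them, with means of 7709 ± 7353 bases in control and 7619 ± 7574 in NMDA (SD, n = 2). The difference of -90.5 bases had an exact two-sided permutation p = 1, where the smallest p that 2 lists against 2 allow is 0.33. The lists with long PPS, control replicate 2 and NMDA replicate 3, are also those with the 13395 nuclear PPS in common. The lists with short PPS, control replicate 3 and NMDA replicate 2, had 2209 in common. Control replicate 3 and NMDA replicate 3, which differ in form, had 9720, and the remaining pairs had 7 to 1109. Nuclear repeats thus did not follow the 2 forms throughout. Whether lists or libraries were exchanged before deposit was not tested, and the comparison by treatment holds only for the lists as labelled. Without control replicate 2 the difference was 5109 bases and without NMDA replicate 2 it was 5265, whereas it was -5290 without control replicate 3 and -5446 without NMDA replicate 3.

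**Figure D1:**
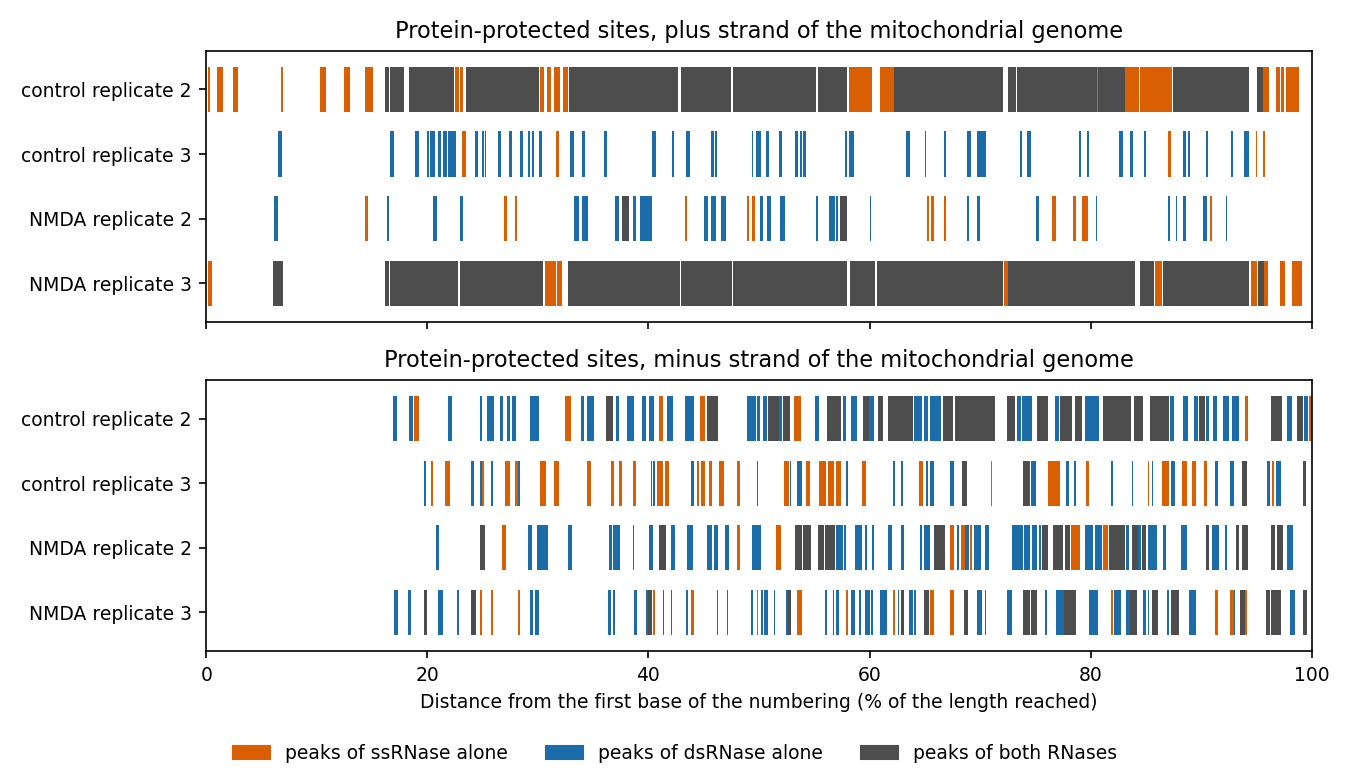
PPS on the plus strand (upper panel) and minus strand (lower panel) of the mitochondrial genome in each of the 4 lists. The horizontal axis is the distance from the first base of the numbering as a percentage of the length reached, each bar is 1 PPS, and its colour gives the RNase of its peaks. On the plus strand, control replicate 2 and NMDA replicate 3 cover 79.7% and 80.1% of the length, while control replicate 3 and NMDA replicate 2 cover 15.5% and 14.0%.

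On nuclear chromosomes the lists differed much less, in part in the same direction. Nuclear plus strands were covered to 0.101% and 0.0684% by the control lists. The NMDA lists covered 0.0966% and 0.0961%, so NMDA replicates 2 and 3 were nearly equal there. PPS of at least 150 bp made up 1.31% and 0.770% of nuclear plus-strand PPS for control replicates 2 and 3. For the NMDA replicates they made up 1.37% and 3.6%. On the mitochondrial plus strand those shares were 45.2% and 0% for control replicates 2 and 3, then 2.17% and 50.0% for the NMDA replicates. Within each group, the list with more long mitochondrial PPS thus also had the larger share of long nuclear PPS on the plus strand. On the minus strand the order was reversed in both groups. Mitochondrial shares there were 19.7% and 1.45% for control replicates 2 and 3 and 5.88% and 1.23% for the NMDA replicates. Nuclear minus-strand shares were 2.56% and 3.40% for control and 1.27% and 2.21% for NMDA. All nuclear shares include the PPS repeated between lists. Some of these may lie on opposite strands, so the nuclear plus and minus shares may not be independent.

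Numbers and lengths of plus-strand PPS did not separate the groups either. The control lists held 42 and 58 PPS (mean 50 ± 11.3, SD, n = 2). The NMDA lists held 46 and 24 (mean 35 ± 15.6, exact permutation p = 0.667). The list with fewest PPS, NMDA replicate 3, had the most covered bases. Median lengths were 133.5 and 38 bp for control, then 43.5 and 145 bp for NMDA (means 85.8 ± 67.5 and 94.3 ± 71.8 bp, exact p = 0.667). Again the values paired across treatments, 1 long and 1 short list in each group. Scaled to 10000 PPS of the list, control averaged 6.53 ± 3.14 and NMDA 4.18 ± 1.71 (SD, n = 2, exact p = 0.667). After Benjamini-Hochberg adjustment over the 6 plus-strand measures tested, each adjusted p was 1. The groups overlapped in all 6. For comparison, groups did not overlap on 30.4% of 46 chromosome strands for the number of PPS, 28.3% for PPS per 10000, 32.6% for covered bases, 23.9% for median length, 28.3% for the share from ssRNase alone and 28.3% for the highest score.

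**Figure D2:**
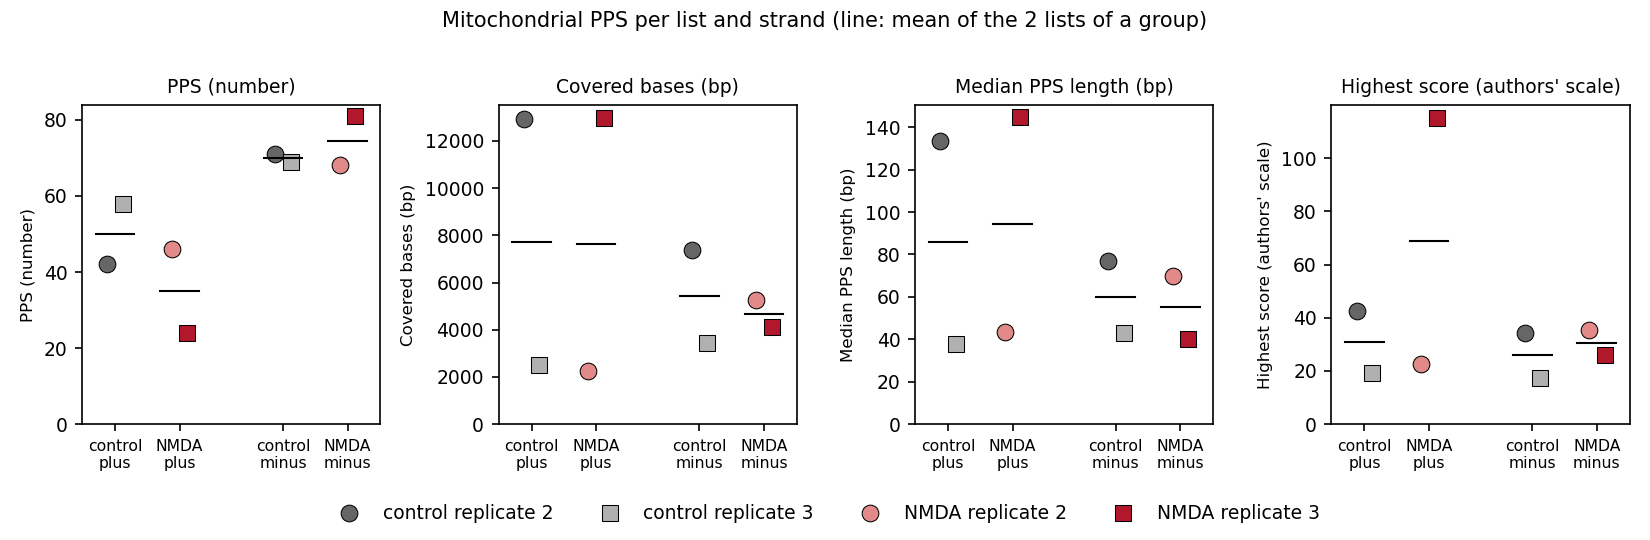
Number of PPS, covered bases, median PPS length and highest score per list, by group and strand. Each point is 1 list (circles replicate 2, squares replicate 3) and each line the mean of the 2 lists of a group. On the plus strand the covered bases of each group are split into a list near 13000 and a list under 3000, with means of 7709 in control and 7619 in NMDA.

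Counted by PPS, the RNases shared out the plus strand in the same 2 forms. In NMDA replicate 3, each of the 24 PPS held exactly 1 ssRNase peak, and 14 of them also held dsRNase peaks, 83 in all. In control replicate 2, all 42 PPS held an ssRNase peak, and 18 also held dsRNase peaks, 55 in all. The lists with long PPS thus had no PPS from dsRNase alone. In control replicate 3, 53 of 58 PPS were from dsRNase alone, 5 from ssRNase alone and 0 from both. NMDA replicate 2 had 30 of 46 from dsRNase alone, 14 from ssRNase alone and 2 from both. In the form with long PPS, then, each PPS with a dsRNase peak also held an ssRNase peak. Peaks that meet are merged, and in these lists PPS cover most of the strand. Single ssRNase peaks still made up 24 of 42 PPS in control replicate 2 and 10 of 24 in NMDA replicate 3. Whether merging accounts for the lack of PPS from dsRNase alone was not tested. Counted by peaks, dsRNase outnumbered ssRNase in each list, at 55 to 49 and 53 to 5 in control. In NMDA the counts were 32 to 16 and 83 to 24. Because the lists give 1 position for a merged PPS and none for its peaks, the bases each RNase contributes to a merged PPS are not known. PPS from ssRNase alone made up 57.1% and 8.62% in control and 30.4% and 41.7% in NMDA (means 32.9% ± 34.3 and 36.1% ± 7.94, SD, n = 2, exact p = 1).

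Peak scores, whose scale is the authors' own and not stated, differed by RNase in the lists with long PPS. The median score of plus-strand ssRNase peaks was 13.5 in control replicate 2 and 33.2 in NMDA replicate 3, against 7 in control replicate 3 and 5.86 in NMDA replicate 2. Median dsRNase scores lay in a narrow range, at 6.82 and 6.81 in control and 7.43 and 7.73 in NMDA. The large differences between lists were therefore in the ssRNase peaks. Within each list, the highest plus-strand mitochondrial score ranked 69 of 97311 PPS in control replicate 2, 902 of 66261 in control replicate 3, 1175 of 85378 in NMDA replicate 2 and 1 of 80792 in NMDA replicate 3. Of the 20 longest PPS of any chromosome, 6 in control replicate 2 and 8 in NMDA replicate 3 were mitochondrial plus-strand PPS, and 0 in the other lists. The highest scores themselves were 42.6 and 19.4 for control, then 22.6 and 115.01 for NMDA (means 31.0 ± 16.5 and 68.8 ± 65.4, SD, n = 2, exact p = 0.667). Without NMDA replicate 3 that difference turned from 37.8 to -8.43.

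**Figure D3:**
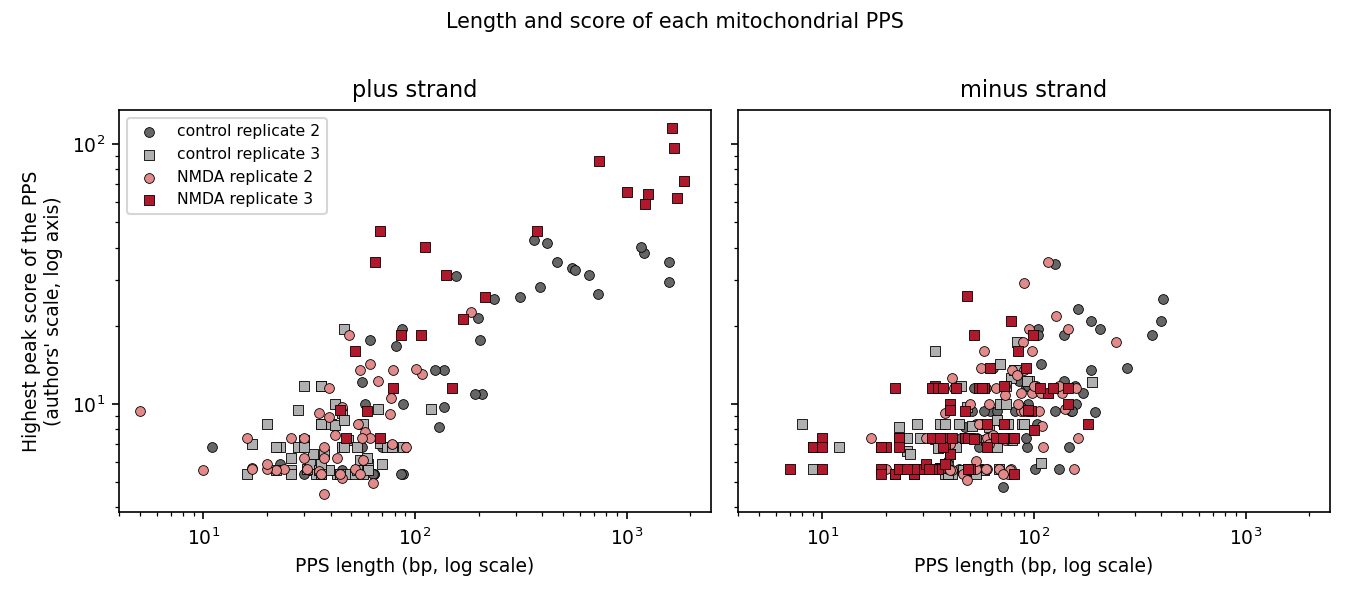
Length against highest peak score for each of the 170 plus-strand PPS (left) and 289 minus-strand PPS (right), both axes logarithmic. Each point is 1 PPS, with the list given by colour and shape. PPS of 1000 bp or longer, 4 in control replicate 2 and 7 in NMDA replicate 3, appear on the plus strand, while the longest minus-strand PPS is 408 bp.

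Some ends of the long PPS of NMDA replicate 3 recurred in control replicate 2. NMDA replicate 3 held 12 PPS of at least 150 bp, with 92.9% of its covered plus-strand bases, and in control replicate 2 such PPS held 87.0%. A start of a control replicate 2 PPS lay within 20 bp of the start for 8 of these 12, and an end within 20 bp for 5 of 12. The furthest offsets were 146 bp for a start and -230 bp for an end. The share of matches that unrelated positions would give was not computed. The PPS of highest score in the whole list of NMDA replicate 3 ran from 5303 to 6940 and held 1 ssRNase and 11 dsRNase peaks. Control replicate 2 had 1 PPS there, from 5319 to 6907, of 1589 bp and score 29.4. In the same stretch control replicate 3 had 6 PPS covering 12.5% of it and NMDA replicate 2 had 6 covering 33.3%. The neighbouring PPS of NMDA replicate 3, from 6958 to 7695 with score 86.0, was matched to within 3 bp at both ends by the control replicate 2 PPS from 6957 to 7692. Another, from 7716 to 9383 with score 96.8, was taken up in control replicate 2 by the PPS from 7717 to 8929 and from 8965 to 9385. The 2 longest PPS of NMDA replicate 3 ran from 11740 to 13609 (1870 bp) and from 9820 to 11557 (1738 bp). Control replicate 2 covered 98.6% and 96.8% of these stretches, with 5 and 2 PPS. Its own longest PPS, 1592 bp, ran from 10075 to 11666.

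The sparse lists can be described by their own leading PPS. In control replicate 3, the longest ran from 3541 to 3659 (119 bp), 11291 to 11378 (88 bp) and 15199 to 15276 (78 bp), each from 1 dsRNase peak. Its highest scores were 19.4 from 4277 to 4322, then 11.7 from 3403 to 3438, 10800 to 10829 and 13729 to 13764, which tie, also from dsRNase alone. In NMDA replicate 2, the PPS from 6348 to 6530 was both the longest, at 183 bp, and the highest in score, at 22.6, and came from dsRNase alone. It was followed in score by 11286 to 11334 (18.4) and 7388 to 7448 (14.3), and in length by 6087 to 6194 (108 bp) and 9284 to 9384 (101 bp). The leading PPS of the sparse lists met at 11291 to 11334, which both hold. In base terms, control replicate 3 and NMDA replicate 2 had 456 bases in common, 18.2% of the first and 20.2% of the second, where each covers 15.5% and 14.0% of the length reached.

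Joining the PPS of all lists where they shared at least 1 bp gave 24 plus-strand sites, 10 of which were held by all 4 lists. These 10 sites were 141 to 1918 bp long and took up 75.3% of the length reached. They held 27 of 42 PPS in control replicate 2, 55 of 58 in control replicate 3, 44 of 46 in NMDA replicate 2 and 13 of 24 in NMDA replicate 3. The scattered PPS of the sparse lists thus lay almost entirely inside the long sites of the others, in a genome of which the long PPS cover most. The sites with the highest scores ran from 5303 to 6940, 7716 to 9385, 6957 to 7695, 11739 to 13656 and 2692 to 3699. From 5303 to 6940 the lists covered 1589 and 205 bases in control and 545 and 1638 in NMDA. From 2692 to 3699 they covered 927 and 426 bases in control and 57 and 1004 in NMDA. In the first of these sites NMDA replicate 2 had more covered bases than control replicate 3, and in the second fewer.

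Short gaps that no list covered separated most of these sites. From 2692 to 15280 there were 9 sites held by all lists, and between neighbours the gaps were 21, 356, 16, 20, 24, 19, 69 and 17 bp long. In 6 of the 8, at 3700 to 3720, 6941 to 6956, 7696 to 7715, 9386 to 9409, 9801 to 9819 and 13657 to 13673, no base lay in a PPS of any list. Joining the PPS of all lists makes this so wherever no other site lies between, so what is observed is where these gaps fall and their length. The other two gaps, of 356 and 69 bp, held PPS of some lists, with 33 and 17 bases in none.

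The first part of the genome, where the usual order places the rRNA genes, was sparsely covered. It is taken here up to base 2734, the last before any minus-strand PPS. There, plus-strand PPS covered 21.98% and 3.84% in control and 4.79% and 11.6% in NMDA. Beyond it they covered 91.4% and 17.9% in control and 15.8% and 94.1% in NMDA, so each list was higher there. Of 8 stretches of at least 100 bp in no list, the 6 longest lay in this first part. They included 1126 to 1662 (537 bp), 462 to 984 (523 bp), 1749 to 2020 (272 bp) and 2100 to 2320 (221 bp). The site held by all 4 lists here ran from 985 to 1125, with 23 and 68 covered bases in control and 52 and 140 in NMDA. At the very start, NMDA replicate 3 held a PPS from 21 to 88 with score 46.3, and control replicate 2 held 1 from 20 to 49 with score 5.40, both from ssRNase alone. Near the end, from 15810 to 16049, control replicate 2 covered 193 bases, NMDA replicate 3 covered 150, and the sparse lists covered 0.

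Bases were also sorted by the lists that cover them. Of plus-strand bases, 448 lay in all 4 lists, in 18 runs of at most 44 bp, the longest from 11291 to 11334, 5511 to 5552, 3319 to 3355 and 8398 to 8434. Both NMDA lists and no control list covered 84 bases in 5 runs. The longest of these were 1001 to 1045 (45 bp) and 8934 to 8963 (30 bp). Both control lists and no NMDA list covered 10 bases in 3 runs of at most 6 bp, the longest from 5129 to 5134. These are 0.678% and 0.0807% of the 12392 plus-strand bases in at least 2 lists, beside 9.71% and 3.98% over all chromosome strands. The mitochondrial counts were bounded by the wide coverage of 1 list in each group. Outside control replicate 2, the NMDA lists had 91 bases in common, and outside NMDA replicate 3 the control lists had 11, so these counts say little about treatment. Control replicate 2 and NMDA replicate 3 alone shared 8075 bases. Of the 17 joined sites in at least 2 lists, 0 were specific to either group, under the same bound, beside 7.89% for NMDA and 4.84% for control over all chromosome strands. Where PPS were limited to those above the median score of their list, the 84 bases became 5.

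In 500 bp bins, the covered bases of the NMDA lists overlapped those of the control lists in all 33 plus-strand bins. Among the 28 bins covered in at least 3 lists, 0 had groups that did not overlap, beside 22.2% of 32639 such bins over all chromosome strands. The latter include nuclear PPS repeated between control and NMDA lists. Such repeats can make groups overlap where they lie on the same strand. In 29 of 33 bins, control replicate 2 and NMDA replicate 3 both lay above both other lists. Within the sparse lists the bins differed in order. Control replicate 3 was highest from 3501 to 4000, with 249 bases, where NMDA replicate 2 had 31. NMDA replicate 2 was highest from 6001 to 6500, with 346 bases, where control replicate 3 had 0.

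**Figure D4:**
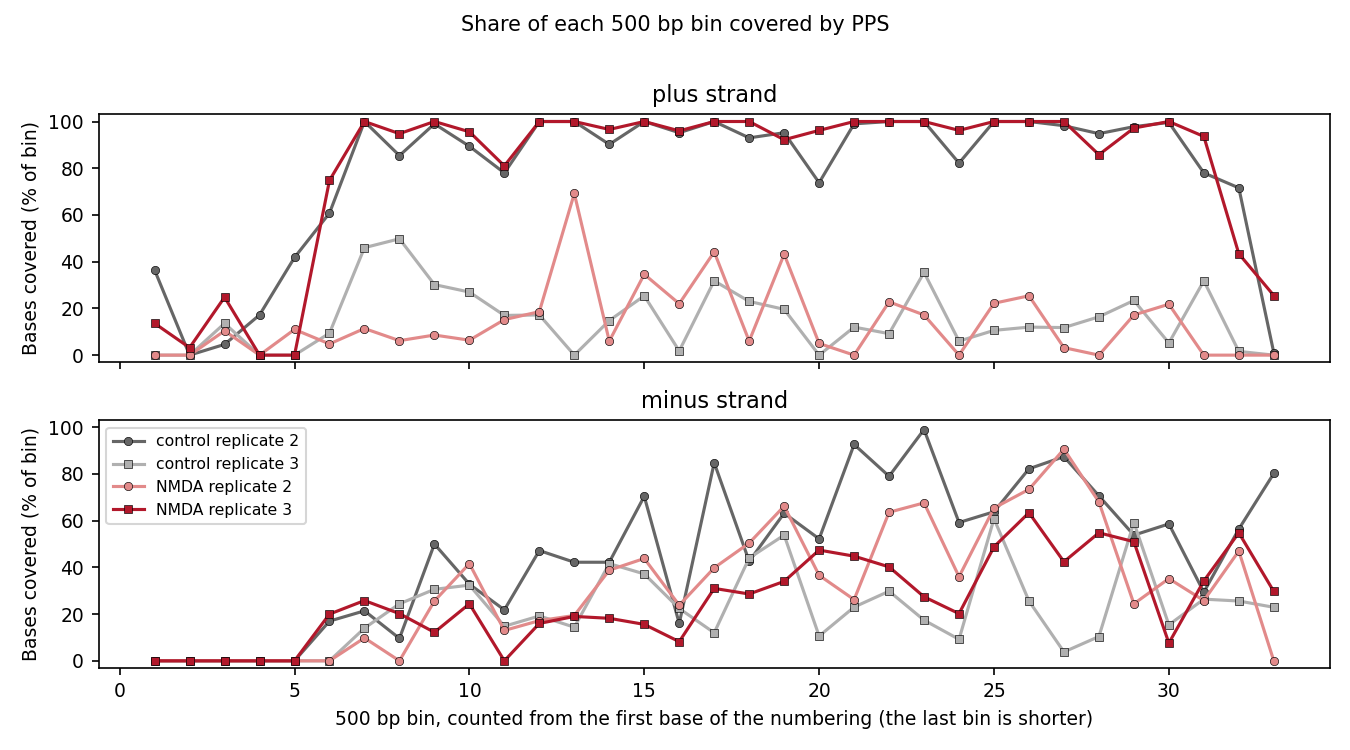
Share of each 500 bp bin covered by PPS, counted from the first base of the numbering, for the plus strand (upper panel) and minus strand (lower panel). Each line is 1 list. In 29 of 33 plus-strand bins control replicate 2 and NMDA replicate 3 both lie above the other lists, and the first 5 minus-strand bins are at 0 in each list.

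The plus and minus labels were compared by position. Over 161 bins of 100 bp, covered bases of the control replicate 3 plus strand correlated with those of the plus strands of control replicate 2, NMDA replicate 2 and NMDA replicate 3 at r = 0.263, 0.122 and 0.310. With the 4 minus strands r was 0.0662 to 0.190. These are descriptions over neighbouring bins of 1 molecule, and such small values do not settle the strand of that list. For NMDA replicate 2, r was 0.252 and 0.255 with the plus strands of control replicate 2 and NMDA replicate 3 and -0.0500 to 0.187 with the minus strands. In the lists with long PPS, the minus strands came above the sparse plus strands. The control replicate 2 plus strand had r = 0.263 and 0.252 with the sparse plus strands and 0.337 to 0.497 with the minus strands. For the NMDA replicate 3 plus strand these were 0.310 and 0.255, against 0.322 to 0.449. These 2 plus strands had r = 0.806 with each other.

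The minus strand, antisense to most of the mRNA genes in the usual map, held more PPS than the plus strand in 4 of 4 lists as deposited, but not more covered bases. It held 71 and 69 PPS in the control lists, then 68 and 81 in those of NMDA. The mean difference, plus minus minus strand, was -29.8 ± 19.6 PPS (SD, n = 4 lists; exact sign-flip p = 0.125, adjusted p = 0.35). They were mostly short, with medians of 77 and 43 bp for control, then 70 and 40 bp for NMDA. Without the block repeated between lists, control replicate 3 kept 38 PPS, fewer than its 58 on the plus strand, so the direction then held in 3 of 4 lists. Covered bases were higher on the plus strand in 2 of 4 lists, control replicate 2 and NMDA replicate 3 (mean difference 2622 ± 5520 bases, SD, n = 4 lists, exact sign-flip p = 0.5, adjusted p = 0.583). Minus-strand covered bases came to 7381 and 3434 in control and 5246 and 4108 in NMDA. Control replicate 2 was highest and control replicate 3 lowest, so the NMDA lists lay between the control lists. The first minus-strand PPS began at 2735 and 3192 in control and at 3365 and 2748 in NMDA. Base 2734 was set from these starts, so the stretch up to it is empty by definition. In that stretch 2 to 9 plus-strand PPS per list began. From 15258 to 15524 there was a further stretch of 267 bp in no list.

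Within each list, the bases covered on both strands showed the same division. In control replicate 2 and NMDA replicate 3, 94.2% and 92.7% of minus-strand covered bases were also covered on the plus strand. Beyond base 2734, where all minus-strand PPS lie, the plus strand was covered to 91.4% and 94.1% in these lists. In control replicate 3 and NMDA replicate 2 the shares of minus-strand bases were 15.99% and 16.7%, with 17.9% and 15.8% of the plus strand covered beyond that base. The overlap of strands was thus close to the plus-strand coverage of each list.

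On the minus strand, dsRNase alone gave 43 of 71 PPS in control replicate 2. In the NMDA lists it gave 42 of 68 and 48 of 81. In control replicate 3 it gave 31 of 69, and these are the peaks that NMDA replicate 3 carries under the ssRNase name, so their RNase is uncertain. Without PPS made of the shared block alone, control replicate 3 kept 38 PPS with 2343 bases and NMDA replicate 3 kept 65 with 3541. The NMDA lists still lay between the control lists in covered bases. In number, control then had 71 and 38 and NMDA 68 and 65. No test of treatment was made on this strand.

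Of 68 joined minus-strand sites, 25 were in all 4 lists, though control replicate 3 and NMDA replicate 3 are not independent there. The shared sites with the highest scores ran from 12876 to 13123, 11727 to 12322 and 15824 to 15946. From 12876 to 13123 the highest scores were 9.31 and 6.78 in control and 35.3 and 9.98 in NMDA, so the high value was that of NMDA replicate 2 alone. From 11727 to 12322 they were 34.5 and 17.4 in control and 13.5 and 18.4 in NMDA, with control replicate 2 highest. From 15824 to 15946 control replicate 3 held no PPS, control replicate 2 reached 12.2, and the NMDA lists reached 29.2 and 20.9. Among the minus-strand bins covered in at least 3 lists, 5 of 27 (18.5%) had groups that did not overlap, all lower in NMDA, beside the 22.2% given above. The bin from 4001 to 4500 was one of them, with 250 and 153 covered bases in control and 128 and 61 in NMDA. Joined sites held by both lists of a group and by neither of the other numbered 2 for NMDA and 4 for control among the 58 minus-strand sites in at least 2 lists. These are 3.45% and 6.90%, beside 7.89% and 4.84% over all chromosome strands. Those of NMDA ran from 3365 to 3466 and from 7598 to 7657, with highest scores of 7.43 each. The leading ones of control ran from 4473 to 4569, 3503 to 3593 and 7232 to 7303, with highest scores of 11.7, 8.35 and 8.35. All of these scores were far under the highest of the strand, 35.3.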

How the data were processed

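Per the submitters' processing notes, cutadapt 1.2.1, TopHat2 2.0.10 and rn6 were used, with no role or order given. Reads were single, of 50 bases. File descriptions in the labels name CSAR with an FDR of 5%. Each deposited list joins ssRNase and dsRNase peaks of 1 replicate and gives 1 score per peak, on a scale the authors do not state. Scores ranked and filtered PPS within a list. Scores set beside each other across lists, the test of the highest score included, assume that the lists share a scale, which is not stated. No read counts are given, so no count model or interval was computed.

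Sample titles gave group and replicate. Covered bases are joined lengths per strand, and overlap meant at least 1 bp. Groups were compared by the exact two-sided permutation test, strands and genomes by exact sign-flip tests, with Benjamini-Hochberg adjustment. The planned comparison by gene class was replaced by 500 bp bins, since no gene map of this build was used.

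Named items were the 5 plus-strand sites in most lists, ties by score, the 3 longest and 3 highest-scoring plus-strand PPS per list, up to 3 sites specific to each group, and the 3 highest-scoring shared minus-strand sites. Other stretches and bins were picked after their values were seen. Members and rules were chosen with earlier results of these data known. The code was tested on simulated intervals (Python 3.11.15, numpy 2.4.6, pandas 2.3.3, matplotlib 3.10.9). Alternatives varied strand, score, length, single-peak PPS, RNase, bin width, pairing and the lists kept.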

Additional observations from a re-analysis of the deposited data

How the results depend on the processing

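No plus-strand measure reached its threshold under any alternative, and none could, since the smallest exact p is 0.33 for 2 lists against 2 and 0.5 for 2 pairs. Directions changed in 8 of 46 alternatives with a test. These 46 include the pairings of lists, which keep the same mean difference and so could not change direction. Runs leaving out a list had no test and are not in this count. With PPS holding an ssRNase peak, the difference in PPS per 10000 (NMDA minus control) became 0.433 and that in covered bases 324. With PPS above the median score of their list, covered bases differed by 537 and median length by -23.8 bp. With PPS holding a dsRNase peak, covered bases differed by 537.5. With both strands, median length differed by -10.8 bp and the share from ssRNase alone by -7.04 percentage points. With single-peak PPS, median length differed by -1 bp. Leaving out each list in turn gave differences of -26 to -4 PPS, -4.57 to -0.137 PPS per 10000, -5446 to 5265 covered bases, -42.3 to 59.3 bp in median length, -21.1 to 27.4 percentage points from ssRNase alone and -8.43 to 84.0 in highest score. Bases specific to NMDA numbered 84, but 5 above the median score and 0 as joined sites. Those specific to control numbered 10, but 26 with strand ignored and 0 as joined sites. The cause of these changes was not tested. The count of 500 bp bins with groups apart, 0, was also 0 in bins of 250 and 1000 bp, with strand ignored and above the median score.

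With the replicate number as a block, the difference of -15 PPS had an exact sign-flip p = 1, and no other call changed. Same-numbered lists deviated in opposite directions (r = -0.646 over 33 plus-strand bins), and pairing them crosswise, chosen after seeing the data, also gave 0 calls for the 6 measures. Read depth is unknown, so whether sparse lists reflect fewer reads was not tested.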
